A study of Mus musculus with 10 samples.

Results

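The mRNA levels of 10 inflammatory genes were examined in erythroid progenitors that carried 1 or both working alleles of *Ddx41*, which encodes a DEAD-box helicase. The genes were chosen by symbol as members of Toll-like receptor (TLR) and interleukin-1 (IL-1) signaling, and they are 10 of the 24421 genes in the deposited counts. Earlier results of these data were known at that choice. Shares of all genes set beside them below are therefore a description and not a test of the set. They comprise the receptors and co-receptor *Cd14*, *Tlr2* and *Tlr4*, the IL-1 receptors *Il1r1* and *Il1r2*, the inflammasome sensor *Nlrp3*, the cytokines *Il1b* and *Tnf*, and the chemokines *Ccl2* and *Cxcl2*. All 10 passed the filter on low counts, which kept 11846 genes.

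RNA-seq was performed on R2 cells, the CD71+Ter119+ fraction of bone marrow (BM) in which erythroid precursors carry both the transferrin receptor and an erythroid surface antigen. Lethally irradiated BoyJ recipients had received 1000000 BM cells from Rosa-CreERT2 donors, and every group was given tamoxifen at 1 mg for 5 days in each of 2 rounds that were 2 days apart. The groups were Ddx41+/+Trp53+/+ (3 mice, replicates 10, 11 and 12), Ddx41+/-Trp53+/+ (2 mice, replicates 32 and 34), Ddx41+/+Trp53+/- (3 mice, replicates 22, 23 and 24) and Ddx41+/-Trp53+/- (2 mice, replicates 46 and 47), each named by the donor marrow. About 100000 cells per mouse were sorted at week 8 after the transplant. In the Ddx41+/- groups tamoxifen-activated Cre had removed 1 floxed allele, and the controls carried the same Cre and received the same tamoxifen. Rosa-driven Cre is active in nearly all donor cells, so the deletion was not limited to the erythroid lineage, and the labels name no marker of donor origin for the sort. The *Trp53* allele came from a conventional knockout strain and did not depend on Cre. Each library came from 1 mouse, and the labels give no age, sex or batch.

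The libraries held 7866648 to 20283930 counts. Levels are given in CPM, the counts of a gene per 1000000 counts of the scaled library, and a floor of 3 counts corresponded to 0.146 to 0.381 CPM, depending on the library. The lowest count of any of the 10 genes in any library was 12, for *Tlr4* in replicate 34, which was also the shallowest library. Replicate 10 stood apart from the other libraries, with a median correlation of 0.974 with them where the other 9 libraries had 0.980 to 0.984. On the main axis of variation in log2 CPM (21.4% of the variance), replicates 10, 11 and 12 lay at -41.9, -23.8 and -10.6. All other mice lay at 1.32 to 18.5. The Ddx41+/+Trp53+/+ group thus stood apart as a whole, and it is the control of 2 comparisons below. The cause was not tested.

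*Ddx41* and *Trp53* were read first as a check of the labels. *Ddx41* stood at 25.1, 21.9 and 22.6 CPM in the Ddx41+/+Trp53+/+ mice and at 26.6, 22.9 and 23.2 CPM in the Ddx41+/+Trp53+/- mice. It stood at 13.8 and 16.5 CPM in the Ddx41+/-Trp53+/+ mice and at 12.5 and 15.7 CPM in the Ddx41+/-Trp53+/- mice. All 4 Ddx41+/- mice lay below all 6 Ddx41+/+ mice. *Trp53* was 57.4 to 68.1 CPM in the 5 Trp53+/+ mice and 40.3 to 46.2 CPM in the 5 Trp53+/- mice, again without overlap.

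The sorted cells carried erythroid markers. *Klf1*, an erythroid transcription factor, stood at 859 to 1023 CPM across the mice. Markers of other BM cells were present in every library. The granulocyte gene *S100a8* reached 740 to 1378 CPM, and the macrophage genes *Csf1r* and *Adgre1* 43.2 to 122 CPM and 16.5 to 35.4 CPM. The T cell gene *Cd3e* (0.105 to 2.16 CPM) and the platelet gene *Pf4* (0.243 to 1.90 CPM) were low, but other genes of these cells differed widely. *Cd4* was 2.91 to 6.60 CPM and *Gp9* 22.1 to 30.5 CPM, whereas *Cd3g* (0.116 to 2.04 CPM) and *Ppbp* (0 to 0.194 CPM) were low as well. In bulk libraries such as these, fewer cells of a type and less RNA per cell cannot be told apart, and myeloid cells express all 10 genes.

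TLRs are sensors of microbial products, and TLR2 and TLR4 act at the cell surface. CD14 hands lipopolysaccharide to TLR4 and assists TLR2, and both receptors signal through MyD88 to the transcription factor NF-kB. IL-1 uses the same adaptor: IL1R1 is its signaling receptor, whereas IL1R2 binds IL-1 without signaling and so acts as a decoy. NLRP3 assembles an inflammasome that activates caspase-1, which cleaves the precursor of IL-1β encoded by *Il1b*. TNF is a second cytokine that activates NF-kB, and CCL2 and CXCL2 attract monocytes and neutrophils, respectively. In BM, these signals are best known from myeloid cells, and they alter blood cell production under inflammatory stress.

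Motifs for the factors behind this pathway were looked up in RefSeq promoters on GRCm38.p6, in the 250 bases before each annotated start. Of the 10 genes, 7 had a promoter there, and 4 of these (*Cxcl2*, *Nlrp3*, *Il1r1* and *Tlr2*) held the NF-kB consensus on either strand, compared with 4.46% of the 27025 genes with a promoter. The AP-1 motif TGANTCA was in 0 of the 7, compared with 7.82% of genes. The PU.1 core GAGGAA, read on both strands, was in 2 (*Nlrp3* and *Tnf*), compared with 25.9%. The NF-kB matches began 97, 186, 232 and 173 bases before the start of *Cxcl2*, *Nlrp3*, *Il1r1* and *Tlr2*. In *Cxcl2* and *Tlr2* the matches on both strands overlapped and mark the same bases. Windows of 3 of them are shown to locate the matches, on the plus strand with the matching bases in capitals, at chr5:90903777-90903837 for *Cxcl2*, chr11:59541358-59541417 for *Nlrp3* and chr1:40266336-40266388 for *Il1r1*. *Nlrp3* and *Il1r1* each have 2 annotated starts, and the match lay at 1 of them. A match describes these letters and is not evidence of binding.
Cxcl2: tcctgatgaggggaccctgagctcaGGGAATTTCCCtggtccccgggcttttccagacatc
Nlrp3: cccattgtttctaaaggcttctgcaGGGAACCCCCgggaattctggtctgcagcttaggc
Il1r1: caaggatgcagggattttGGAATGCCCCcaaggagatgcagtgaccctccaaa

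The genes lie at chr3:83836272-83841767 (*Tlr2*, minus strand), chr4:66827584-66930284 (*Tlr4*, plus), chr1:40225080-40317257 (*Il1r1*, plus), chr1:40074079-40125231 (*Il1r2*, plus), chr11:59541568-59566956 (*Nlrp3*, plus), chr2:129364570-129371139 (*Il1b*, minus), chr17:35199381-35202007 (*Tnf*, minus), chr11:82035571-82037453 (*Ccl2*, plus) and chr5:90903871-90905938 (*Cxcl2*, plus) in GENCODE M21 on GRCm38, and *Cd14* is on chromosome 18. *Nlrp3* and *Ccl2* share chromosome 11 with *Trp53*, at distances of 10.01 and 12.4 Mb. *Il1b*, *Il1r2* and *Ccl2* overlap a gene on the opposite strand (*Il1bos*, *Gm16894* and *Gm17268*), as *Ddx41* does (*Gm46416*), and *Il1r1* and *Il1r2* overlap a gene on the same strand (*Gm38070* and *Gm37347*). The labels name a stranded library kit and the study's methods another kit, and whether the counting used strand is not stated, so reads of these genes and their partners may not have been told apart.

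Per kilobase of exon, *Cxcl2* had the highest mean level over the 10 mice (10.5 ± 3.48 CPM per kb, SD, n = 10), followed by *Cd14* (9.76 ± 4.45), *Il1b* (8.28 ± 2.67), *Tlr2* (6.20 ± 1.22), *Il1r2* (5.71 ± 2.05) and *Il1r1* (4.78 ± 1.16 CPM per kb). *Nlrp3* (3.48 ± 1.12), *Ccl2* (3.28 ± 1.62) and *Tnf* (3.17 ± 0.968 CPM per kb) were lower, and *Tlr4* was lowest (0.447 ± 0.175 CPM per kb). Neighbors in this order differed by less than the larger of their SDs, except for *Il1r1* and *Nlrp3* and for *Tnf* and *Tlr4*. The top of the order differed between genotypes. *Cxcl2* was highest in the Ddx41+/-Trp53+/+ mice (15.6 CPM per kb, *Cd14* 12.8), whereas *Il1b* was highest in the Ddx41+/+Trp53+/+ mice (9.30, *Cxcl2* 7.98), and *Cd14* in the Ddx41+/+Trp53+/- mice (11.1, *Cxcl2* 9.09) and the Ddx41+/-Trp53+/- mice (12.9, *Cxcl2* 11.3 CPM per kb). In CPM the spread among mice was widest for *Ccl2*, whose highest level was 5.66 times its lowest, and for *Cd14* (4.27 times). It was narrowest for *Tlr2* (1.75 times) and *Il1r1* (1.98 times).

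**Figure D1:**
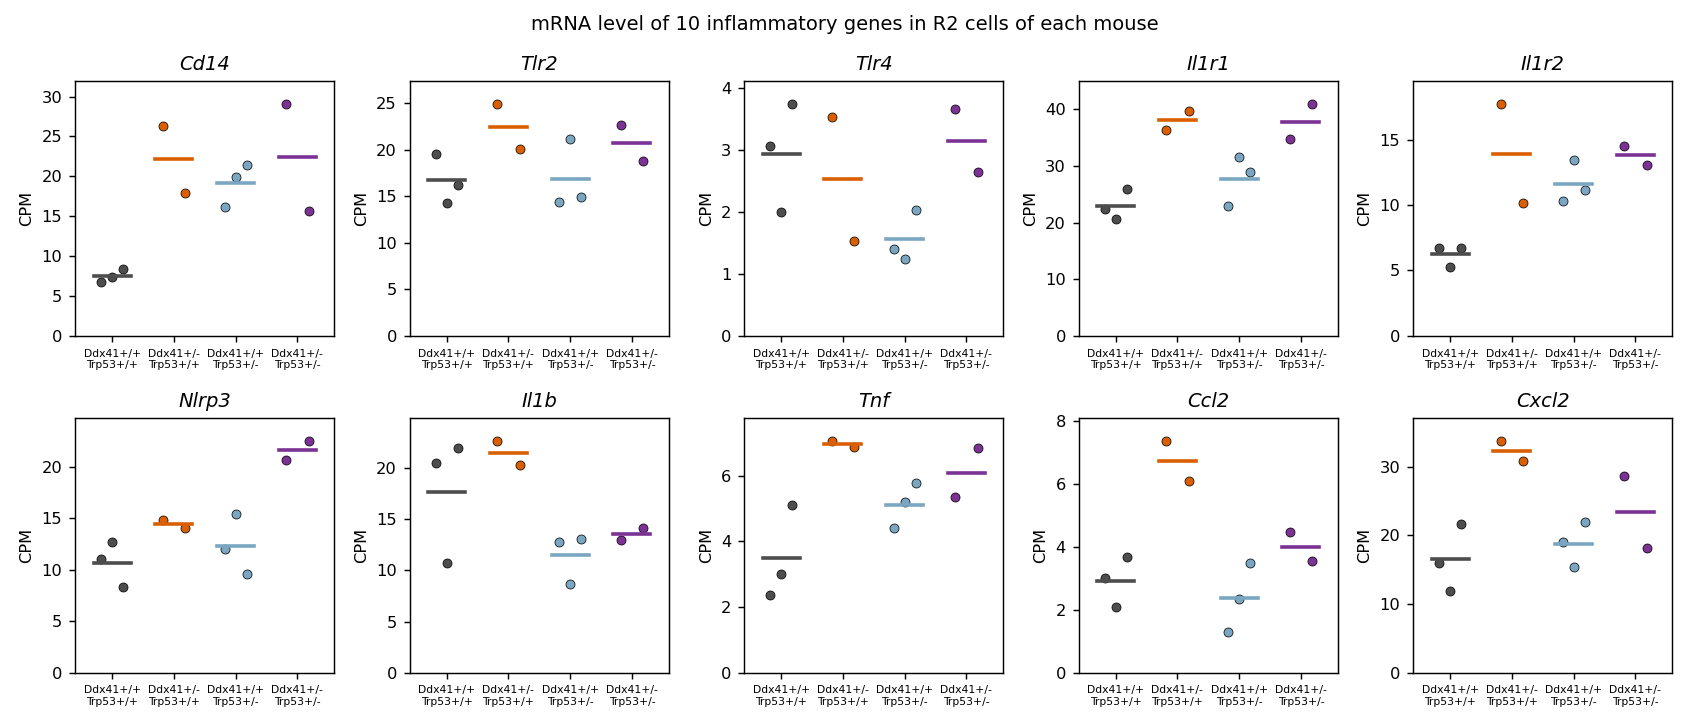
Level of each of the 10 genes in CPM (vertical axis, linear, from 0) in every mouse, with 1 point per mouse and a bar at the genotype mean. The Ddx41+/+Trp53+/+ mice are lowest for Cd14 and Il1r2, and all 4 Ddx41+/- mice are above all 6 Ddx41+/+ mice for Il1r1.

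To determine the effect of *Ddx41* heterozygosity with intact *Trp53*, the Ddx41+/-Trp53+/+ mice were compared with the Ddx41+/+Trp53+/+ mice. *Cd14*, *Il1r2* and *Il1r1* rose in the Ddx41+/- cells, by log2 fold changes of 1.58, 1.19 and 0.73. These 3 receptor genes were called DEGs by edgeR (fold change over 1.5 and adjusted p under 0.05), where 0.54% of all tested genes were called, 0.38% as higher and 0.16% as lower. DESeq2 called 4 of the 10, with *Cxcl2* added, and edgeR without a filter on low counts called 6, with *Tnf*, *Ccl2* and *Cxcl2* added. Both settings also called more of all genes, with 243 called without a filter and 64 with it. In the edgeR fit with the filter no cytokine or chemokine gene passed the threshold, although 9 of the 10 genes had a positive log2 fold change (50.3% of all tested genes), with a median of 0.85 where that of all genes was 0.0010. In 8 of the 10, every Ddx41+/- mouse was above every Ddx41+/+ mouse, as in 12.9% of all genes, and 7 had an unadjusted p under 0.05 with a higher level, as in 5.52% of all genes.

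Of the microbial sensors, *Cd14* was 6.80, 7.34 and 8.44 CPM in the Ddx41+/+ mice and 26.3 and 17.9 CPM in the Ddx41+/- mice. Both Ddx41+/- mice were far above a tight control group (7.53 ± 0.834 CPM, SD, n = 3), and they differed from each other by more than the controls did. The log2 fold change of *Cd14* was 1.58 (SE 0.235, edgeR adjusted p = 0.00339). *Tlr2* was 19.6, 14.2 and 16.3 CPM in the Ddx41+/+ mice and 24.9 and 20.1 CPM in the Ddx41+/- mice, where the groups were separated by a narrow gap (log2 fold change 0.44, SE 0.190, adjusted p = 0.465, with a log2 fold change of 0.26 without replicate 32). *Tlr4*, the receptor that CD14 serves, was 3.06, 1.99 and 3.74 CPM in the Ddx41+/+ mice and 3.53 and 1.52 CPM in the Ddx41+/- mice. Replicate 34 was below all controls and replicate 32 among them, with a log2 fold change of -0.13 (SE 0.411, adjusted p = 0.958) that was 0.28 without replicate 34.

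The decoy receptor gene *Il1r2* was 6.70, 5.30 and 6.71 CPM in the Ddx41+/+ mice and 17.7 and 10.2 CPM in the Ddx41+/- mice. Replicate 32 was the higher of the Ddx41+/- mice, as for *Cd14*, and the groups did not overlap (log2 fold change 1.19, SE 0.223, adjusted p = 0.0169). The signaling receptor gene *Il1r1* was 22.4, 20.7 and 26.01 CPM in the Ddx41+/+ mice and 36.4 and 39.8 CPM in the Ddx41+/- mice. Here the Ddx41+/- mice were close together and again above all controls (log2 fold change 0.73, SE 0.147, adjusted p = 0.0312). *Il1rap*, which encodes the co-receptor that IL1R1 needs to signal, was looked up after the values were seen and was 3.53 to 5.55 CPM in all 10 mice.

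The inflammasome gene *Nlrp3* was 11.1, 12.7 and 8.37 CPM in the Ddx41+/+ mice and 14.8 and 14.1 CPM in the Ddx41+/- mice. The groups did not overlap, but the difference did not pass the threshold (log2 fold change 0.43, SE 0.207, adjusted p = 0.532). *Il1b*, the substrate's gene, was 20.5, 10.7 and 21.998 CPM in the Ddx41+/+ mice and 22.7 and 20.32 CPM in the Ddx41+/- mice. The controls themselves spanned a wider range than the difference between groups, with replicate 11 the lowest (log2 fold change 0.29, SE 0.247, adjusted p = 0.781), and the log2 fold change was 0.029 without replicate 11 and 0.47 without replicate 12. *Tnf* was 2.37, 3.01 and 5.12 CPM in the Ddx41+/+ mice and 7.06 and 6.86 CPM in the Ddx41+/- mice. Replicate 12 was the nearest control to the Ddx41+/- mice, and the adjusted p was 0.187 (log2 fold change 1.01, SE 0.297), compared with 0.0263 without a filter.

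The monocyte chemokine gene *Ccl2* was 3.01, 2.09 and 3.67 CPM in the Ddx41+/+ mice and 7.36 and 6.10 CPM in the Ddx41+/- mice. Both Ddx41+/- mice were above all controls (log2 fold change 1.22, SE 0.345, adjusted p = 0.160, and 0.0101 without a filter). The neutrophil chemokine gene *Cxcl2* was 15.9, 11.95 and 21.7 CPM in the Ddx41+/+ mice and 33.8 and 30.9 CPM in the Ddx41+/- mice. Its groups also stood apart, and it came nearest to the threshold among the genes not called (log2 fold change 0.98, SE 0.226, adjusted p = 0.0628). It was called by DESeq2 (0.98, adjusted p = 0.00378) and by edgeR without a filter (0.98, adjusted p = 3.35e-07). Wherever given, the p-values without a filter were those of a normal distribution for the log2 fold change over its SE. They take the spread of each gene between mice as known and are too small for groups of this size.

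These calls depended on single mice. Without replicate 32, 0 of the 10 genes were called by edgeR, and *Cd14* kept a log2 fold change of 1.25 (adjusted p = 0.126), whereas without replicate 12, 5 were called, with *Tnf* (1.37, adjusted p = 0.0285) and *Cxcl2* (1.22, adjusted p = 0.0123) added. *Il1r2* was not called without replicate 11 (1.09, adjusted p = 0.0695) or 32 (0.70, adjusted p = 0.520), nor in a fit of only these genotypes (1.19, adjusted p = 0.0705), and *Il1r1* was not called without replicate 10 (0.71, adjusted p = 0.0819), 11 (0.66, adjusted p = 0.0972), 32 (0.79, adjusted p = 0.140) or 34 (0.67, adjusted p = 0.335).

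**Figure D2:**
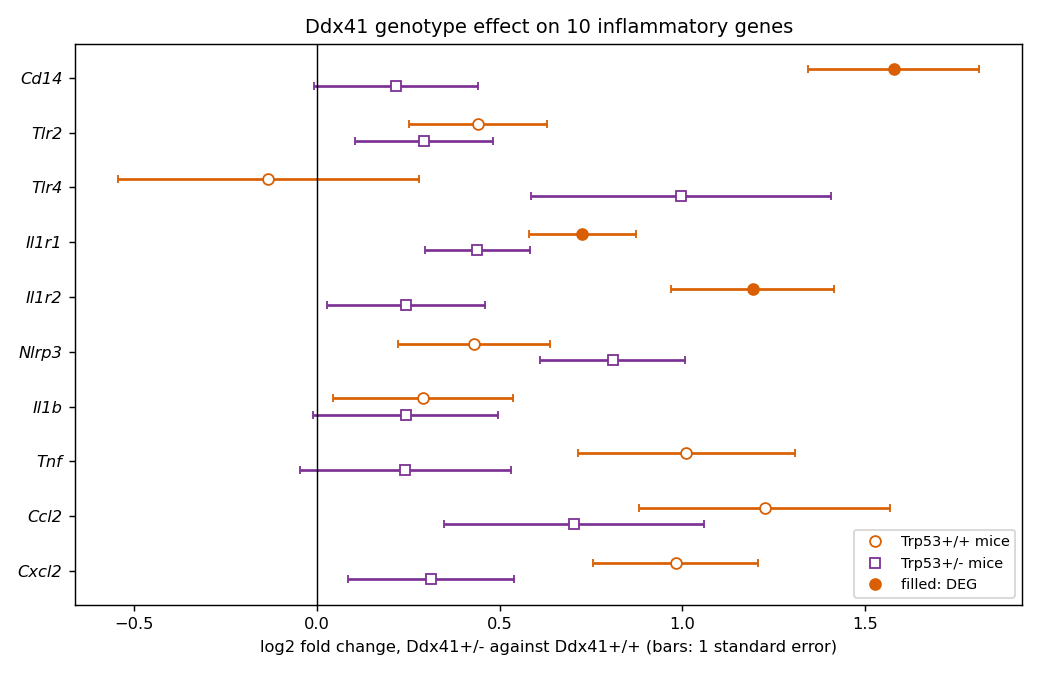
Log2 fold change of Ddx41+/- against Ddx41+/+ for each gene (horizontal axis), in Trp53+/+ mice (circles) and Trp53+/- mice (squares), with bars of 1 standard error and filled symbols for DEGs. Cd14 and Il1r2 have the widest gaps toward a smaller effect in Trp53+/- mice (1.58 against 0.22 and 1.19 against 0.24), whereas Nlrp3 and Tlr4 are higher in Trp53+/- mice.

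To examine the same effect with 1 allele of *Trp53*, the Ddx41+/-Trp53+/- mice were compared with the Ddx41+/+Trp53+/- mice. None of the 10 genes was called by edgeR, where 0.0422% of all tested genes were called (5 genes), and DESeq2 also called 0. All 10 had a positive log2 fold change (48.8% of all genes), with a median of 0.30 where that of all genes was -0.0050. *Nlrp3*, *Il1r1* and *Tlr4* had an unadjusted p under 0.05 with a higher level, as in 2.15% of all genes. Both Ddx41+/- mice were above all 3 Ddx41+/+ mice for these genes and for *Ccl2*, as in 9.23% of all genes.

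*Nlrp3* was 11.9993, 15.4 and 9.60 CPM in the Ddx41+/+ mice and 20.7 and 22.5 CPM in the Ddx41+/- mice, which were the highest of all 10 mice. Its log2 fold change was 0.81 (SE 0.199, unadjusted p = 8.76e-04, edgeR adjusted p = 1.00), and it was called without a filter (0.81, adjusted p = 0.00450). *Il1r1* was 22.9, 31.5 and 28.9 CPM in the Ddx41+/+ mice and 34.7 and 40.9 CPM in the Ddx41+/- mice (log2 fold change 0.44, SE 0.145, adjusted p = 1.00). *Tlr4* was 1.40, 1.24 and 2.04 CPM in the Ddx41+/+ mice and 3.66 and 2.64 CPM in the Ddx41+/- mice. This is a difference between few counts, 14 to 35 per library in the Ddx41+/+ mice and 47 to 63 in the Ddx41+/- mice (log2 fold change 1.00, SE 0.411, adjusted p = 1.00).

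*Cd14* and *Il1r2* had smaller log2 fold changes here than in Trp53+/+ mice. *Cd14* was 16.2, 19.9 and 21.4 CPM in the Ddx41+/+ mice and 29.0 and 15.7 CPM in the Ddx41+/- mice, which lay on both sides of the controls (log2 fold change 0.22, SE 0.225). *Il1r2* was 10.3, 13.4 and 11.1 CPM in the Ddx41+/+ mice and 14.5 and 13.1 CPM in the Ddx41+/- mice, with overlap (log2 fold change 0.24, SE 0.216). All 3 controls lay between the Ddx41+/- mice for *Cd14*, and 1 of the 3 did for *Il1r2*, with the others below. Of the others, *Ccl2* was 1.30, 2.35 and 3.49 CPM in the Ddx41+/+ mice and 4.47 and 3.53 CPM in the Ddx41+/- mice (log2 fold change 0.70, SE 0.355), and *Cxcl2*, *Tlr2*, *Il1b* and *Tnf* had log2 fold changes of 0.31, 0.29, 0.24 and 0.24 with overlapping groups. Without replicate 46, the log2 fold changes of *Cd14* and *Cxcl2* turned to -0.29 and -0.05. With 1 mouse left out, *Ccl2* ranged from 0.45 (without replicate 22) to 1.09 (without 24), *Il1b* from 0.066 (without 23) to 0.36 (without 24), *Tnf* from 0.065 (without 47) to 0.41 (without 46) and *Tlr2* from 0.16 (without 46) to 0.50 (without 23).

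An interaction term compared the effects, as the value in Trp53+/- mice minus that in Trp53+/+ mice. It was positive for 2 of the 10 genes, *Tlr4* and *Nlrp3*, and for 48.5% of all tested genes, and negative for the other 8. *Cd14* had the largest difference (-1.36, SE 0.328, unadjusted p = 7.54e-04, edgeR adjusted p = 0.337), followed by *Tlr4* (1.13, SE 0.583) and *Il1r2* (-0.95, SE 0.313, unadjusted p = 0.00785, adjusted p = 0.745). The difference for *Il1r2* was -0.45 without replicate 32 and -1.26 without replicate 34, and that for *Tlr4* was 1.94 and 0.72. None of the 10 passed the threshold, where 0.0675% of all tested genes did (8 genes), and 2 had an unadjusted p under 0.05, both lower, as in 2.7% of all genes. For *Cd14* the call depended on replicate 46, without which the difference was -1.87 (adjusted p = 0.0444), and DESeq2 called 1 of the 10, *Cd14* (-1.35, adjusted p = 0.0305), as did edgeR without a filter (-1.36, adjusted p = 3.29e-05). The difference for *Nlrp3* was 0.38 (SE 0.289) and that for *Il1r1* -0.29 (SE 0.208), both within 1.5 standard errors. With 1 mouse left out, that for *Nlrp3* ranged from 0.22 (without replicate 24) to 0.58 (without 23). That for *Il1r1* ranged from -0.40 (without replicate 22) to -0.17 (without 46).

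Over both *Trp53* genotypes, with *Trp53* as a second term, all 10 genes were higher in the 4 Ddx41+/- mice (50.1% of all genes), and 8 had an unadjusted p under 0.05 with a higher level (5.06% of all genes). *Il1r1* alone had an adjusted p under 0.05 by edgeR (log2 fold change 0.58, SE 0.106, adjusted p = 0.0402), and its fold change of 1.496 fell just short of the limit of 1.5, so none of the 10 was a DEG (0.11% of all genes, 13 genes). DESeq2 called 4 of the 10 (*Nlrp3*, *Ccl2*, *Il1r2* and *Cxcl2*), and it also called more of all genes than edgeR did (totals are given at the end). *Il1r1* was also the single gene of the 10 with every Ddx41+/- mouse (34.7 to 40.9 CPM) above every Ddx41+/+ mouse (20.7 to 31.5 CPM), as in 0.794% of all genes. The other log2 fold changes were 0.97 for *Ccl2* (SE 0.248, adjusted p = 0.185), 0.89 for *Cd14* (SE 0.233, adjusted p = 0.213), 0.63 for *Nlrp3* (SE 0.148, adjusted p = 0.130), and 0.27 to 0.71 for the rest. With 1 mouse left out, *Il1r2* ranged from 0.41 (without replicate 32) to 0.86 (without 47). *Tlr4* ranged from 0.21 (without 46) to 0.71 (without 34) and *Il1b* from 0.15 (without 11) to 0.35 (without 12). *Il1r1* ranged from 0.53 (without 34) to 0.66 (without 46), and its adjusted p was not under 0.05 in every such fit. Without replicate 23 or 24 *Il1r1* passed both limits (0.64 and 0.61), as it did without replicate 46 (0.66), and *Cd14* did so without replicate 47 (1.20, adjusted p = 0.0219). *Ddx41* itself fell by 0.70 on the log2 scale (SE 0.108, adjusted p = 0.0173), a call lost without replicate 10 (-0.68, adjusted p = 0.0501), 32 (-0.67, adjusted p = 0.127) or 46 (-0.63, adjusted p = 0.0591).

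To see how the *Trp53* genotype alone related to these genes, the Ddx41+/+Trp53+/- mice were compared with the Ddx41+/+Trp53+/+ mice, which are also the controls of the first comparison, so the effects are given side by side and not as separate evidence. *Cd14* and *Il1r2* rose with loss of 1 *Trp53* allele, and the other 8 genes were not called, where 0.912% of all tested genes were called, 0.844% as higher. The log2 fold change of *Cd14* was 1.36 (SE 0.215, edgeR adjusted p = 0.00477), beside 1.58 for *Ddx41*, and that of *Il1r2* was 0.91 (SE 0.203, adjusted p = 0.0423), beside 1.19. All 3 Trp53+/- mice were above all 3 controls for these 2 genes, as in 7.58% of all genes. The remaining values ranged from -0.88 for *Tlr4* (SE 0.377, adjusted p = 0.453) and -0.62 for *Il1b* (SE 0.227, adjusted p = 0.328) to 0.58 for *Tnf* (SE 0.270, adjusted p = 0.525), with 0.28 for *Il1r1*. With 1 mouse left out, *Tnf* ranged from 0.36 (without replicate 10) to 0.93 (without 12), and *Il1r1* from 0.18 (without 23) to 0.39 (without 22). The call of *Il1r2* was lost without replicate 10, 11, 12, 22, 23, 24, 46 or 47, each left out in turn (adjusted p = 0.0530 to 0.196, log2 fold change 0.79 to 0.98), and in a fit of only these genotypes (0.90, adjusted p = 0.0534) or of genes with at least 10 counts in every library (0.90, adjusted p = 0.0523). *Il1b* was called lower without replicate 11 (-0.89, adjusted p = 0.0221) and without a filter (-0.62, adjusted p = 0.0109).

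Between the Ddx41+/- groups, the *Trp53* genotypes differed in none of the 10 genes by edgeR or DESeq2, where 0.169% of all tested genes were called by edgeR (20 genes). An unadjusted p under 0.05 was seen for *Nlrp3* on the higher side and *Il1b* on the lower, as in 2.79% and 2.63% of all genes. *Nlrp3* was higher in both Ddx41+/-Trp53+/- mice than in both Ddx41+/-Trp53+/+ mice (log2 fold change 0.58, unadjusted p = 0.0197), as in 18.8% of all genes. *Il1b* (-0.67, unadjusted p = 0.0267), *Ccl2* (-0.76), *Cxcl2* (-0.47) and *Tnf* were lower in both, as in 18.5% of all genes. The log2 fold change of *Cxcl2* was -0.84 without replicate 46 and -0.17 without replicate 47, and that of *Tnf* was -0.03 and -0.37.

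The other genes of these pathways were read from a list of 134 sorted by role, of which 132 were in the table and 114 passed the filter. With Trp53+/+, 4 of the 114 rose in Ddx41+/- cells and 0 fell, where 0.38% of all tested genes were called higher and 0.16% lower. DESeq2 called 5 of the 114 and edgeR without a filter 10, and both called more of all genes as well (243 without a filter, compared with 64). The 4 genes were *Aim2*, which encodes a DNA-sensing inflammasome receptor, *Ccr7*, a chemokine receptor gene of lymphocytes and dendritic cells, and *Zc3h12a* and *Tnfaip3*, which encode the inhibitors of inflammatory signaling Regnase-1 and A20. *Aim2* was 14.6, 17.3 and 20.9 CPM in the Ddx41+/+ mice and 39.3 and 39.8 CPM in the Ddx41+/- mice (log2 fold change 1.17, SE 0.180, edgeR adjusted p = 0.00438). The 2 Ddx41+/- mice were nearly equal and well above the controls. *Zc3h12a* was 6.54, 6.32 and 5.74 CPM in the Ddx41+/+ mice and 14.96 and 13.6 CPM in the Ddx41+/- mice (log2 fold change 1.20, SE 0.188, adjusted p = 0.00446). *Tnfaip3* was 55.2, 51.6 and 45.5 CPM in the Ddx41+/+ mice and 90.3 and 92.2 CPM in the Ddx41+/- mice (log2 fold change 0.84, SE 0.154, adjusted p = 0.0149). *Ccr7* was 4.11, 3.45 and 4.91 CPM in the Ddx41+/+ mice and 9.61 and 14.99 CPM in the Ddx41+/- mice (log2 fold change 1.55, SE 0.268, adjusted p = 0.0112). None of the 4 genes overlapped between the groups, and 12.9% of all genes stood apart in this direction. With replicate 34 left out all 4 calls were lost (*Aim2* 1.17, adjusted p = 0.0746, *Zc3h12a* 1.27, adjusted p = 0.0566, *Tnfaip3* 0.83, adjusted p = 0.204, *Ccr7* 1.22, adjusted p = 0.273), and with replicate 32 left out those of *Aim2* (1.18, adjusted p = 0.0709), *Zc3h12a* (1.12, adjusted p = 0.104) and *Tnfaip3* (0.85, adjusted p = 0.126) were lost.

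By role, the NF-kB subunits, inhibitors and feedback genes stood highest after the 10 genes themselves. All 15 tested genes of that role had a positive log2 fold change with Trp53+/+ (median 0.64), compared with 50.3% of all genes, and 10 had an unadjusted p under 0.05 with a higher level, as in 5.52% of all genes. The medians were 0.24 for 17 chemokines and their receptors, 0.21 for 16 other cytokines and receptors and 0.16 for 7 TNF ligands and receptors. They were 0.02 for 13 other TLRs and co-receptors, -0.03 for 22 adaptors and kinases, -0.06 for 15 inflammasome and pyroptosis genes and -0.07 for 9 IL-1 family genes. *Myd88*, the shared adaptor, was 17.2 to 24.4 CPM in all mice, and *Ly96*, the partner that TLR4 needs to bind lipopolysaccharide, had 4 to 15 counts per library. Both were picked out after the values were seen. On the lower side, the smallest p-values were those of *Cx3cr1*, a monocyte chemokine receptor gene (-0.60, SE 0.269, adjusted p = 0.496), *Ticam2* (-0.54, SE 0.299), a TLR4 adaptor gene, and *Ikbkg* (-0.19, SE 0.117), which encodes the regulatory subunit of the IkB kinase. The log2 fold change of *Cx3cr1* was -0.37 without replicate 10, and that of *Ikbkg* was -0.11 without replicate 34.

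With Trp53+/-, 0 of the 114 were called by edgeR or DESeq2 and 1 (*Nfkbiz*) by edgeR without a filter, and 10 had an unadjusted p under 0.05, all of them higher, as in 2.15% of all genes. A positive log2 fold change was seen for 88 of the 114 (median 0.16), where 48.8% of all genes had one, and for 71 with Trp53+/+ (median 0.13), where 50.3% had one. *Tnfaip3* was 63.6, 108 and 82.7 CPM in the Ddx41+/+ mice and 119 and 130 CPM in the Ddx41+/- mice, all of the latter above the former (log2 fold change 0.54, SE 0.150, adjusted p = 1.00). It was called when replicate 23, the highest control, was left out (0.76, adjusted p = 0.0282). *Csf1r*, the receptor gene of macrophage colony-stimulating factor (0.57, SE 0.191), and *Nfkbiz*, an inducible NF-kB cofactor gene (0.63, SE 0.216, and adjusted p = 0.00164 without a filter), had the next smallest p-values among higher genes. *Fadd* (-0.45, SE 0.235), *Cxcl10* (-0.72, SE 0.376) and *Ltb* (-0.46, SE 0.267), which encode a death-domain adaptor, an interferon-inducible chemokine and lymphotoxin-β, led those that were lower. With 1 mouse left out these ranged from -0.59 to -0.31 for *Fadd*, -1.14 to -0.39 for *Cxcl10* and -0.69 (without replicate 46) to -0.19 (without replicate 24) for *Ltb*. For the NF-kB role, 11 of 15 were positive (median 0.21).

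Over both *Trp53* genotypes, *Tnfaip3* (0.69, SE 0.111, adjusted p = 0.0203) and *Zc3h12a* (0.83, SE 0.154, adjusted p = 0.0433) were called higher, where 0.11% of all tested genes were called. DESeq2 called 5 of the 114 and also more of all genes than edgeR did (totals are given at the end). The call of *Tnfaip3* was lost without replicate 10 (0.70, adjusted p = 0.0501), 32 (0.66, adjusted p = 0.129) or 34 (0.66, adjusted p = 0.101). That of *Zc3h12a* was lost without replicate 10 (0.80), 11 (0.80), 12 (0.77), 22 (0.79), 24 (0.87), 32 (0.71), 34 (0.79) or 47 (0.88), and with at least 10 counts in every library (0.84, adjusted p = 0.0550). With Ddx41+/+, the *Trp53* comparison called 4 genes of the list higher and 0 lower, where 0.844% of all tested genes were called higher. DESeq2 called 8 genes of the list, for which no share of all genes is given here. Without a filter edgeR called 12 of the list and 250 of all genes, compared with 108 with the filter. The 4 genes were *Ccr7* (1.51, SE 0.242), *Zc3h12a* (1.02, SE 0.170), *Tnfaip3* (0.75, SE 0.139) and *Nfkbia* (0.74, SE 0.141), the gene of the NF-kB inhibitor IkBα. The call of *Nfkbia* was lost without replicate 10 (0.66), 12 (0.68) or 23 (0.53), and that of *Tnfaip3* without replicate 23 (0.53) or 24 (0.77) and in a fit of only these genotypes (0.74, adjusted p = 0.0533). *Nfkbia* was 70.9, 93.4 and 72.1 CPM in the Ddx41+/+Trp53+/+ mice and 110.1, 166 and 118 CPM in the Ddx41+/+Trp53+/- mice. The most abundant gene of each role was *Cd36* (771 CPM on average), *Il1rl1* (81.4), *Tab2* (330.4), *Txnip* (337), *Tnfrsf1b* (34.8), *Zfp36* (228), *Cxcr4* (192) and *Tgfb1* (106 CPM).

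**Figure D3:**
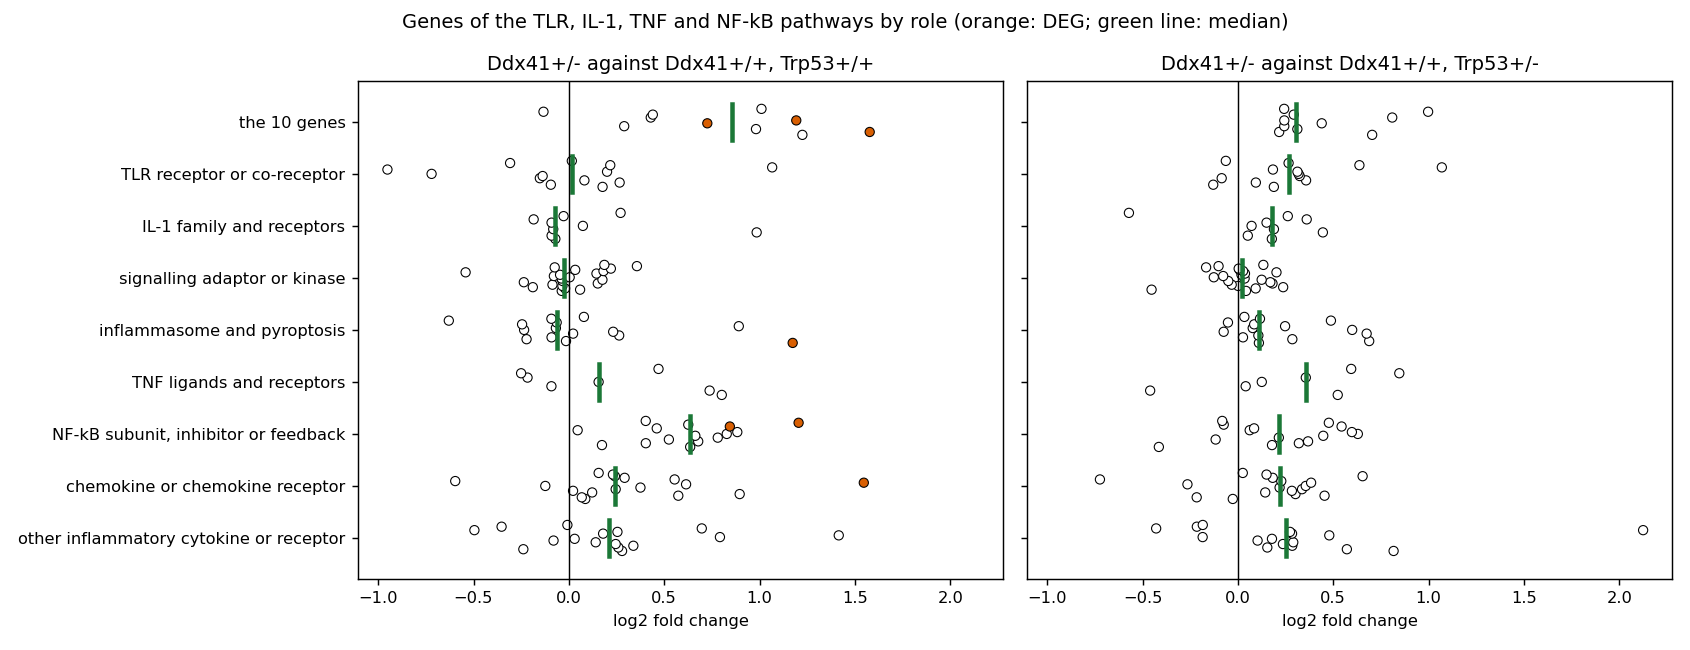
Log2 fold change of Ddx41+/- against Ddx41+/+ (horizontal axis) for the 10 genes and for the 114 other tested pathway genes by role, with Trp53+/+ in the left panel and Trp53+/- in the right, 1 point per gene, orange for DEGs and a green line at the median. All 15 NF-kB genes lie above 0 in the left panel (median 0.64), and all 10 genes of the top row do so in the right panel.

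Markers of other BM cells were set beside these results, and their part in them was not tested. The 10 genes summed to 111, 90.0 and 122 CPM in the Ddx41+/+Trp53+/+ mice and to 195 and 168 CPM in the Ddx41+/-Trp53+/+ mice. They summed to 115, 134 and 132 CPM in the Ddx41+/+Trp53+/- mice and to 177 and 156 CPM in the Ddx41+/-Trp53+/- mice, so that all 4 Ddx41+/- mice were above all 6 Ddx41+/+ mice. The 14 monocyte and macrophage markers, all tested and led by *Lyz2*, summed to 1851, 1542 and 1922 CPM in the Ddx41+/+Trp53+/+ mice and to 1967 and 1654 CPM in the Ddx41+/-Trp53+/+ mice, where replicate 32 was above all 3 controls and replicate 34 among them (median log2 fold change -0.11). *Lyz2* alone averaged 1093 CPM over the 10 mice, so the sums of this list largely reflect that gene. Replicate 32 is also the mouse without which 0 of the 10 genes were called. With Trp53+/-, the sums were 1403, 1506 and 1487 CPM in the Ddx41+/+ mice and 2014 and 1461 CPM in the Ddx41+/- mice, and 13 of the 14 markers had a positive log2 fold change (median 0.40), compared with 48.8% of all genes. Of the 14, 6 had an unadjusted p under 0.05 with a higher level (2.15% of all genes), 8 stood apart between the groups (9.23% of all genes) and 0 were called, beside 3, 4 and 0 of the 10 inflammatory genes. Replicate 46, which had the high sum, was also the higher Ddx41+/-Trp53+/- mouse for *Cd14*, *Tlr2*, *Tlr4*, *Il1r2*, *Ccl2* and *Cxcl2*, and replicate 47 for *Nlrp3*, *Il1r1*, *Il1b* and *Tnf*. Between the Ddx41+/+ groups, where *Tlr4* and *Il1b* had log2 fold changes of -0.88 and -0.62 with Trp53+/-, 13 of the 14 markers were on the lower side (median -0.62), where 50.1% of all genes were on the higher side. An unadjusted p under 0.05 with a lower level was seen for 10 of them, as in 4.02% of all genes, and 0 were called (*Csf1r* -0.72, SE 0.173, adjusted p = 0.0638).

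The 12 neutrophil markers in the table, led by *S100a9*, summed to 5474, 5160.3 and 8338 CPM in the Ddx41+/+Trp53+/+ mice and 8169 and 6066 CPM in the Ddx41+/-Trp53+/+ mice, with overlap. They summed to 5882, 5809 and 8141 CPM in the Ddx41+/+Trp53+/- mice and to 8266 and 4850 CPM in the Ddx41+/-Trp53+/- mice, again with overlap. *Ly6g* was not analysed here. The 8 erythroid markers, led by *Slc4a1*, summed to 43474 to 49361 CPM over all mice. With Trp53+/- their sums were 43474 and 46245 CPM in the Ddx41+/- mice and 46349 to 49361 CPM in the Ddx41+/+ mice, separated by a very narrow gap. All 8 had a negative log2 fold change there (median -0.12), opposite to the 10 genes, where 48.8% of all genes had a positive one. With Trp53+/+ the sums overlapped (44395 and 44929 CPM, compared with 44314 to 48875 CPM, median log2 fold change -0.04). None of the 8 was called in either comparison or over both *Trp53* genotypes, where all 8 were again negative (median -0.07) and 50.1% of all genes were positive.

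The B cell markers were lowest in the Ddx41+/+Trp53+/+ mice. All 10 were detected, led by *Cd79a*, and they summed to 93.1, 46.6 and 94.4 CPM in the Ddx41+/+Trp53+/+ mice and to 118 and 187 CPM in the Ddx41+/-Trp53+/+ mice. The sums were 164, 159 and 199.9 CPM in the Ddx41+/+Trp53+/- mice and 187 and 160.0 CPM in the Ddx41+/-Trp53+/- mice. The Ddx41+/+Trp53+/+ mice were thus below all 7 other mice, as they were for *Cd14* (6.80 to 8.44 CPM, compared with 15.7 to 29.0 CPM) and *Il1r2* (5.30 to 6.71 CPM, compared with 10.2 to 17.7 CPM). Between the Ddx41+/-Trp53+/+ mice the order was opposite, with the higher B cell sum in replicate 34 and the higher *Cd14* and *Il1r2* in replicate 32. In the *Ddx41* comparison with Trp53+/+, all 10 B cell markers had a positive log2 fold change (50.3% of all genes), with a median of 0.99 beside 0.85 for the 10 inflammatory genes. Of the markers, 8 had an unadjusted p under 0.05 with a higher level (5.52% of all genes), 7 stood apart between the groups (12.9%) and 2 were called (0.38%). These were *Cd79a* (1.17, SE 0.237, adjusted p = 0.0312) and *Ebf1* (1.62, SE 0.319, adjusted p = 0.0250), and neither was called without replicate 10 (1.22 and 1.64), 11 (0.92 and 1.39) or 34 (0.82 and 0.95), nor in a fit of only these genotypes (adjusted p = 0.0802 and 0.0979). In the *Trp53* comparison with Ddx41+/+, which called *Cd14* and *Il1r2*, all 10 B cell markers were higher with an unadjusted p under 0.05 (median log2 fold change 1.25), as in 5.42% of all genes, and 5 were called, compared with 0.844% of all genes. Among them were *Ebf1* (1.89, SE 0.284, adjusted p = 0.00319) and *Cd79a* (1.25, SE 0.214, adjusted p = 0.00794), of which *Cd79a* was not called without replicate 24 (1.14, adjusted p = 0.0520). Over 15 alternative settings *Ebf1* was called in 15, *Cd79a* in 14, *Ms4a1* in 9 and *Blnk* in 6, so the count of 5 depended on the setting. The defining marker *Pax5* was 1.51 to 10.1 CPM over all mice.

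Of the lesser lists, the T and NK markers (top gene *Cd4*) summed to 7.97 to 12.3 CPM in the Ddx41+/+Trp53+/+ mice and to 13.02 and 17.8 CPM in the Ddx41+/-Trp53+/+ mice, without overlap, and to 11.6 to 18.6 CPM in the Trp53+/- mice. Dendritic cell markers (*Cd74*, with the defining *Siglech* at 2.35 to 12.7 CPM) summed to 195 to 430 CPM and megakaryocyte markers (*Gp9*) to 36.0 to 49.9 CPM over all mice. Mast cell and basophil markers (*Prss34*, with *Mcpt8* at 4.45 to 39.2 CPM) were 32.9 to 36.1 CPM in the Ddx41+/+Trp53+/+ mice, 49.4 and 19.3 CPM in the Ddx41+/-Trp53+/+ mice and 62.4 to 127 CPM in the Trp53+/- mice. In the *Trp53* comparison with Ddx41+/+, all 6 of these were on the higher side (median log2 fold change 1.05), as were 50.1% of all genes. Of the 6, 2 were called, where 0.844% of all genes were called higher. These were *Cpa3* (1.36, SE 0.300, adjusted p = 0.0382) and *Prss34* (1.102, SE 0.230, adjusted p = 0.0285). Both calls were lost without replicate 10, 11, 12, 23 or 24, each left out in turn (adjusted p = 0.0562 to 0.245). The call of *Prss34* was also lost without replicate 22 (adjusted p = 0.0563) and with DESeq2 (adjusted p = 0.0597), and that of *Cpa3* without replicate 46 (adjusted p = 0.0549) or 47 (adjusted p = 0.0611) and with only the genotypes compared (adjusted p = 0.0571). The T and NK markers had a median of 0.72 there with 0 called, the neutrophil markers 0.09 and the erythroid markers 0.06.

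**Figure D4:**
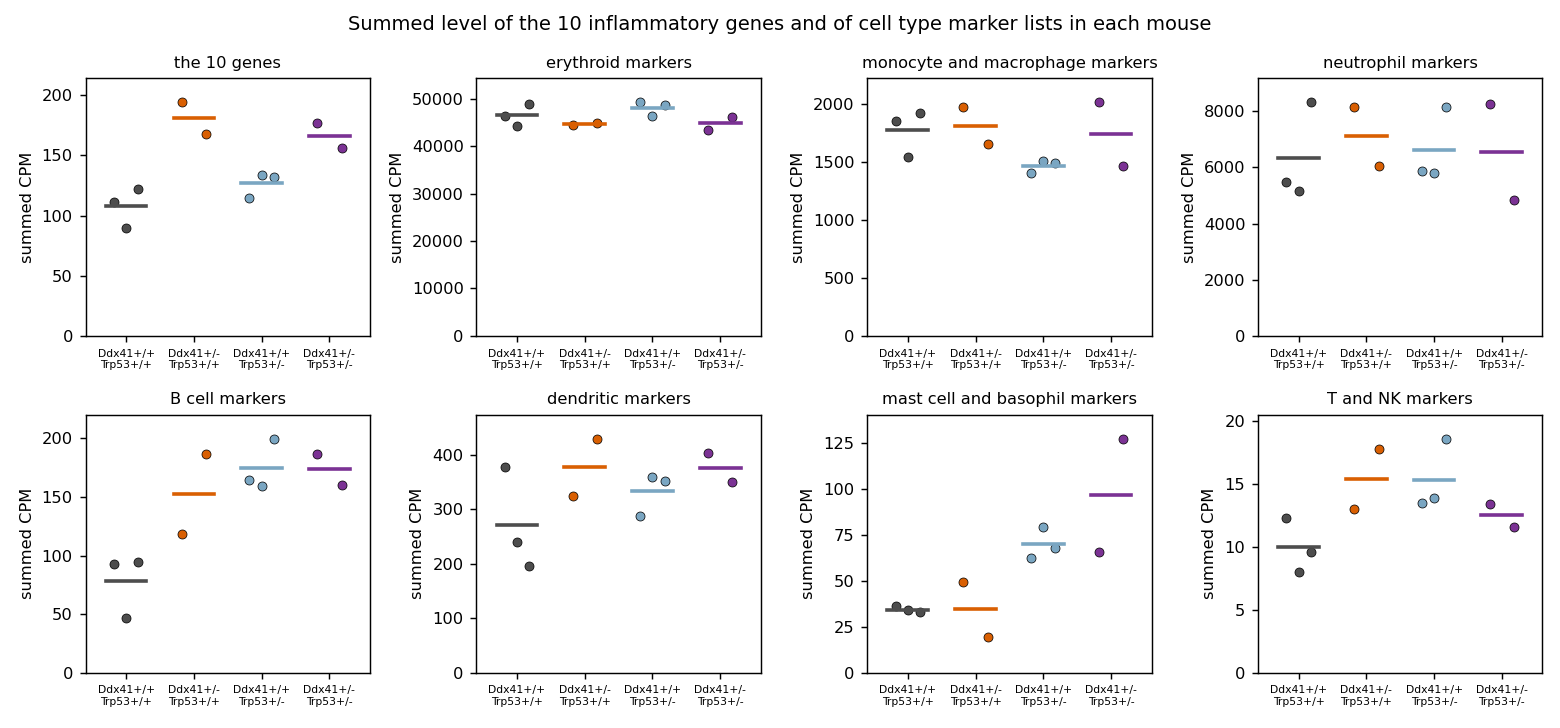
Summed CPM (vertical axis, linear, from 0) of the 10 genes and of 7 cell type marker lists in every mouse, with 1 point per mouse and a bar at the genotype mean. The 10 genes are higher in all 4 Ddx41+/- mice, the monocyte and neutrophil sums overlap between the Ddx41 genotypes with Trp53+/+, and the B cell sums are lowest in the 3 Ddx41+/+Trp53+/+ mice.

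The 10 genes varied together to different degrees. Over the 10 mice, 40 of their 45 pairs had a positive Pearson correlation of log2 CPM (median 0.56), from -0.29 for *Nlrp3* and *Il1b* to 0.93 for *Cd14* and *Il1r2*. The mice share genotypes and differ in depth, so these values describe the libraries and carry no test. When the standardised log2 CPM of the 10 genes were averaged, the score was 0.45 to 1.15 in the Ddx41+/- mice and -1.13 to -0.14 in the Ddx41+/+ mice. The genes most like this score over the 10 mice were *Kdm6b* (r = 0.961), which encodes a histone demethylase, *Cyp4f18* (0.941), *Arhgap26* (0.935), *Nfkbiz* (0.935), the AP-1 gene *Fosb* (0.929), *Id2* (0.924), *Kif1c* (0.920), *Ms4a6c* (0.915), *Osgin1* (0.915) and *Btbd3* (0.907). *Nfkbiz* was 27.6, 18.8 and 30.2 CPM in the Ddx41+/+Trp53+/+ mice, 48.7 and 41.3 CPM in the Ddx41+/-Trp53+/+ mice, 19.2, 37.6 and 29.3 CPM in the Ddx41+/+Trp53+/- mice and 48.6 and 41.2 CPM in the Ddx41+/-Trp53+/- mice. It was chosen for its likeness to a score that already separated the *Ddx41* genotypes, so these levels are a description. Taken singly, the nearest gene was *Fosl1* for *Cd14* (r = 0.949), *Prkcd* for *Tlr2* (0.954), *Capza2* for *Tlr4* (0.928), *Btbd3* for *Il1r1* (0.950, on a mean of 0.351 CPM, within the range of the floor), *Sh2d2a* for *Il1r2* (0.953), *Prdm15* for *Nlrp3* (0.944), *Nfic* for *Il1b* (0.956), *Dysf* for *Tnf* (0.954), *Cyp4f18* for *Ccl2* (0.949) and *Ap1s2* for *Cxcl2* (0.933). With a prior count of 0.5 in place of 2, *Osgin1* was nearest to *Il1r1*, *Btbd3* left the 10 genes most like the score, and the nearest genes of the other 9 stayed the same.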

How the data were processed

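RNA-seq counts of R2 cells from 10 mice were analysed. The authors deposited raw counts per gene symbol, without normalization, and the submitters' processing notes name FastQC 0.11.7, HISAT2 2.0.5, featureCounts 1.5.2 and mm10. The annotation and the strand setting of the counting are not given in the sources used here. Per its name, the deposited table had mice 35 and 45 removed, and they were not used here.

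The statistics were run in edgeR 4.0.16 under R 4.3.3. Its low-count filter was applied by genotype (minimum count 10), followed by TMM scaling. A quasi-likelihood model then estimated a mean for each genotype from all 10 libraries, and the *Ddx41* effect over both *Trp53* genotypes came from a model with a term for each gene. Tests were two-sided, and the Benjamini-Hochberg method adjusted the p-values over 11846 genes. The standard error was the log2 fold change divided by the square root of F. Log2 CPM used a prior count of 2. The reads carried no molecular identifiers, so the floor of 3 counts covers counting error only, and n is the number of mice. The study's methods name littermates for its transplants without saying which replicates shared a litter or day. The number of marrow donors per genotype is not given either, so recipients of a group may share a donor. The p-values are therefore judged against the spread between these recipients, which may not cover that between donors.

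The members, lists and tests were chosen with earlier results of these data known. All members are named, with *Ddx41* and *Trp53*. From the pathway list, every called gene, the 3 smallest p-values in each direction of the 2 simple *Ddx41* comparisons and the most abundant gene per role are named. The top and defining genes of 8 marker lists and the most alike genes are named too, apart from some defining genes that are not reported here. Alternatives were DESeq2 1.42.0, its size factors within edgeR, no filter, a stricter filter (at least 10 counts in each library), separate fits of the genotypes compared, each mouse left out, and a prior count of 0.5. Without a filter, the p-values treated the spread of each gene between mice as known, so those calls show only how the results depend on the setting. The procedure was tested on simulated data.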

Additional observations from a re-analysis of the deposited data

Results flagged for a closer look

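In 4 of the 124 tested genes of the pathway, the 10 genes included (3.23%, compared with 1.62% of all tested genes), the mice of the *Ddx41* genotypes stood apart with both *Trp53* genotypes but in opposite directions, and none of the differences passed adjustment by edgeR. *Tnip1*, the gene of a partner of A20, was 22.6, 21.1 and 29.6 CPM in the Ddx41+/+Trp53+/+ mice, 35.1 and 40.4 CPM in the Ddx41+/-Trp53+/+ mice, 23.9, 26.5 and 24.4 CPM in the Ddx41+/+Trp53+/- mice and 23.8 and 23.6 CPM in the Ddx41+/-Trp53+/- mice (difference of the effects -0.70, SE 0.207, unadjusted p = 0.00370, adjusted p = 0.589). *Ikbkg* had a difference of 0.43 (SE 0.164, unadjusted p = 0.0192, adjusted p = 0.838). *Naip5*, the gene of a flagellin-sensing inflammasome receptor, had a difference of 0.83 (SE 0.342, unadjusted p = 0.0269, adjusted p = 0.920). *Cxcl10* had a difference of -1.28 (SE 0.533, unadjusted p = 0.0290, adjusted p = 0.921), on 25 to 63 counts per library. With 1 mouse left out the differences ranged from -0.86 to -0.60 for *Tnip1*, 0.35 to 0.53 for *Ikbkg*, 0.69 to 1.07 for *Naip5* and -1.70 to -0.95 for *Cxcl10*. The genes were chosen because their groups stood apart in opposite directions. That choice already fixed the sign, so the unchanged sign is no measure of stability. The *Ddx41* effect on *Cxcl10* with Trp53+/- was -1.14 without replicate 47 and -0.39 without 46, and that on *Ikbkg* with Trp53+/+ was -0.29 without replicate 32 and -0.11 without 34.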

How the results depend on the processing

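For Ddx41+/- against Ddx41+/+ with Trp53+/+, 64 genes were called, 131 with DESeq2 and 243 without a filter, and 13 to 103 when 1 mouse was left out (13 without replicate 34, 26 without 32, 103 without 12). Of the 10 genes, 3 were called, 4 with DESeq2, 6 without a filter, 2 with only the genotypes compared and 0 to 5 when 1 mouse was left out. With Trp53+/-, 5 genes were called, 39 without a filter, 2 with at least 10 counts in every library and 1 to 10 with 1 mouse left out. Of the 10 genes, 0 were called, and 1 (*Nlrp3*) without a filter. For the difference, 8 genes were called, 29 with DESeq2 and 100 without a filter, and of the 10 genes 1 with either and 0 to 1 with 1 mouse left out. For *Trp53* with Ddx41+/+, 108 genes were called, 250 without a filter, 66 with only the genotypes compared and 35 to 115 with 1 mouse left out, and of the 10 genes 2, 3 without a filter, 1 with at least 10 counts, 1 with only the genotypes compared and 1 to 2 with 1 mouse left out. For *Trp53* with Ddx41+/-, 20 genes were called, 37 with DESeq2, 67 without a filter, 37 with only the genotypes compared and 13 to 24 with 1 mouse left out. Over both *Trp53* genotypes, 13 genes were called, 40 with DESeq2, 94 without a filter, 8 with at least 10 counts and 2 to 42 with 1 mouse left out, and of the 10 genes 4 with DESeq2, 5 without a filter, 1 with at least 10 counts and 0 to 1 with 1 mouse left out. The larger counts without a filter and with DESeq2 and the spread over single mice have causes that were not tested. The sign of *Cd14* for *Trp53* with Ddx41+/- (-0.0029) turned to 0.0010 with DESeq2's size factors, 0.0074 with DESeq2 and 0.0046 with at least 10 counts, and it was the only one among the gene values to do so outside the fits without 1 mouse.

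With 1 mouse left out, the log2 fold change also changed sign for genes near 0 or with few mice. For *Ddx41* with Trp53+/+ it ranged from -0.93 to 0.28 for *Tlr4*. With Trp53+/- it ranged from -0.29 to 0.61 for *Cd14*, -0.052 to 0.62 for *Cxcl2* and -0.087 to 0.10 for *Trp53*. The difference ranged from -0.28 to 0.055 for *Tlr2*, -0.23 to 0.22 for *Il1b* and -0.31 to 0.0017 for *Ddx41*. For *Trp53* with Ddx41+/+ the range was -0.19 to 0.15 for *Tlr2*, -0.0059 to 0.36 for *Nlrp3*, -0.62 to 0.015 for *Ccl2* and -0.0093 to 0.12 for *Ddx41*. For *Trp53* with Ddx41+/- it was -0.51 to 0.38 for *Cd14*, -0.27 to 0.054 for *Tlr2*, -0.16 to 1.05 for *Tlr4*, -0.12 to 0.10 for *Il1r1*, -0.36 to 0.45 for *Il1r2* and -0.26 to 0.056 for *Ddx41*. Where 1 mouse of a genotype was left, it was assumed to vary like the other genotypes. Of the most alike genes, 9 of 10 were kept with a prior count of 0.5. No paired analysis was possible because the genotypes share no replicate numbers. Precision is limited by 2 or 3 mice per genotype and, for *Tlr4* and *Ccl2*, by libraries with as few as 12 and 13 counts.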
